A study of Mus musculus with 6 samples.

Results

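The genes described here are 42 members of the bone morphogenetic protein (BMP), activin and transforming growth factor beta (TGF-beta) pathways, chosen by symbol: ligands, receptors, SMAD proteins, latent binding proteins, antagonists and Id target genes. All 42 were among the 19618 genes of the deposited count table, and 41 passed the filter on low counts; Bmp8a did not. Their RNA was measured by sequencing of polyadenylated RNA from keratinocytes, the main cells of the epidermis, of the tails of mice 4 months old. The knockout mice were K14cre+ and homozygous for the floxed Gpr161 allele, so that Cre recombinase, driven by a keratin 14 promoter, acts in basal keratinocytes and the cells they give rise to. The control mice had no K14cre in their labels, and 1 of them was homozygous and 2 were heterozygous for the floxed allele. Both groups had 3 libraries, named by the tag of their column, and values are always given in this order: knockout libraries DE679, DE685, DE688, then control libraries DE680, DE684, DE689. The column names do not tie a library to a title, so the homozygous control is not known.

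Ligands of this superfamily bind a pair of type I and type II receptor kinases, which phosphorylate receptor SMADs; these join Smad4 and enter the nucleus. BMPs signal mainly through Smad1, Smad5 and Smad9, and activins and TGF-betas through Smad2 and Smad3. TGF-betas are secreted in a latent complex that latent TGF-beta binding proteins anchor in the matrix. In skin, TGF-beta restrains keratinocyte proliferation, BMPs help to keep hair follicle stem cells quiescent, and follistatin (Fst) binds and blocks activins. Gpr161, a receptor found in the primary cilium, is known to restrain Hedgehog signalling.

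Libraries held 17157864 to 25344399 estimated counts. Levels are given in CPM, the count of a gene relative to the total of its library, with TMM scaling, a correction for library composition, and levels of different genes are compared only as CPM per kilobase (kb) of exon. Gpr161 itself had 26.8, 33.6 and 25.9 CPM in knockouts, against 30.2, 32.2 and 31.9 CPM in controls, which overlap, so its total level does not check the labels. Every direction below therefore goes by the label of the library. Gli1, a target of Hedgehog signalling, had 69.4 ± 4.42 CPM in knockouts and 9.15 ± 0.857 CPM in controls (SD, n = 3 each), with no overlap. DE685 and DE684 held Y-linked transcripts and almost no Xist, so each group had 1 male and 2 female libraries. The labels do not say that the libraries came from separate animals; if they did not, p-values measure only the spread between these samples. The 7 basal keratinocyte markers summed to 31115 to 34904 CPM in knockouts and 27093 to 32104 in controls, most of it Krt5 and Krt14. Of these 7, 5 had a positive estimate and 0 passed in edgeR. At an unadjusted p under 0.05, 2 were higher and 0 lower, and 3 had groups apart, all higher. DESeq2 called 2 higher, Krt15 and Trp63. The part of the basal markers in the results below was not tested. All 9 markers of differentiated keratinocytes had a negative estimate, with a median log2 fold change of −0.28: 0 passed in edgeR, 4 were lower at an unadjusted p under 0.05 with 4 whose groups were apart, and DESeq2 called 2 lower, Krtdap and Dsc1. Their sums, most of which is Krt10, were 20739 to 27784 CPM in knockouts and 23341 to 37577 in controls, and their part in the results below was not tested.

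Fst and Ltbp1 were the members with an adjusted p under 0.05 in edgeR, both higher in the knockout and both acting outside the cell. Fst was higher by 2.18-fold and Ltbp1 by 1.92-fold (quasi-likelihood test of edgeR, adjusted p by Benjamini-Hochberg 0.0116 and 0.0158). They were 2 of the 41 members tested, or 4.88%, where 1.24% of all 15422 genes tested were called higher. The members were chosen with earlier results of these data known, so this share and those below are no independent test of the pathway. The count of 2 changed when 1 library was left out. It was 0 without DE688, 1 (Fst alone) without DE680, DE684 or DE685, 2 without DE689 and 3 without DE679. In these fits the log2 fold change was 0.98 to 1.25 for Fst and 0.85 to 1.05 for Ltbp1. The number of genes called among all tested fell from 247 to between 69 and 121. No member was called lower, against 0.357% of all genes. At an unadjusted p under 0.05, 10 members were higher (24.4%, against 9.9% of all genes) and 6 lower (14.6%, against 9.1%). The median log2 fold change was 0.05 over the 41 members and −0.0036 over all genes. The 3 knockout libraries lay above all 3 controls for 9 members (22.0%, where 12.8% of all genes did so) and below them for 6 (14.6%, where it was also 12.8%). A DESeq2 Wald test on the same counts called 7 members higher (17.1%, against 3.92% of the genes to which it gave an adjusted p) and 1 lower (2.44%, against 2.14%): Bmp7, Fst, Ltbp1, Ltbp2, Tgfb1, Tgfb2 and Tgfb3 higher, and Skil lower.

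**Figure D1:**
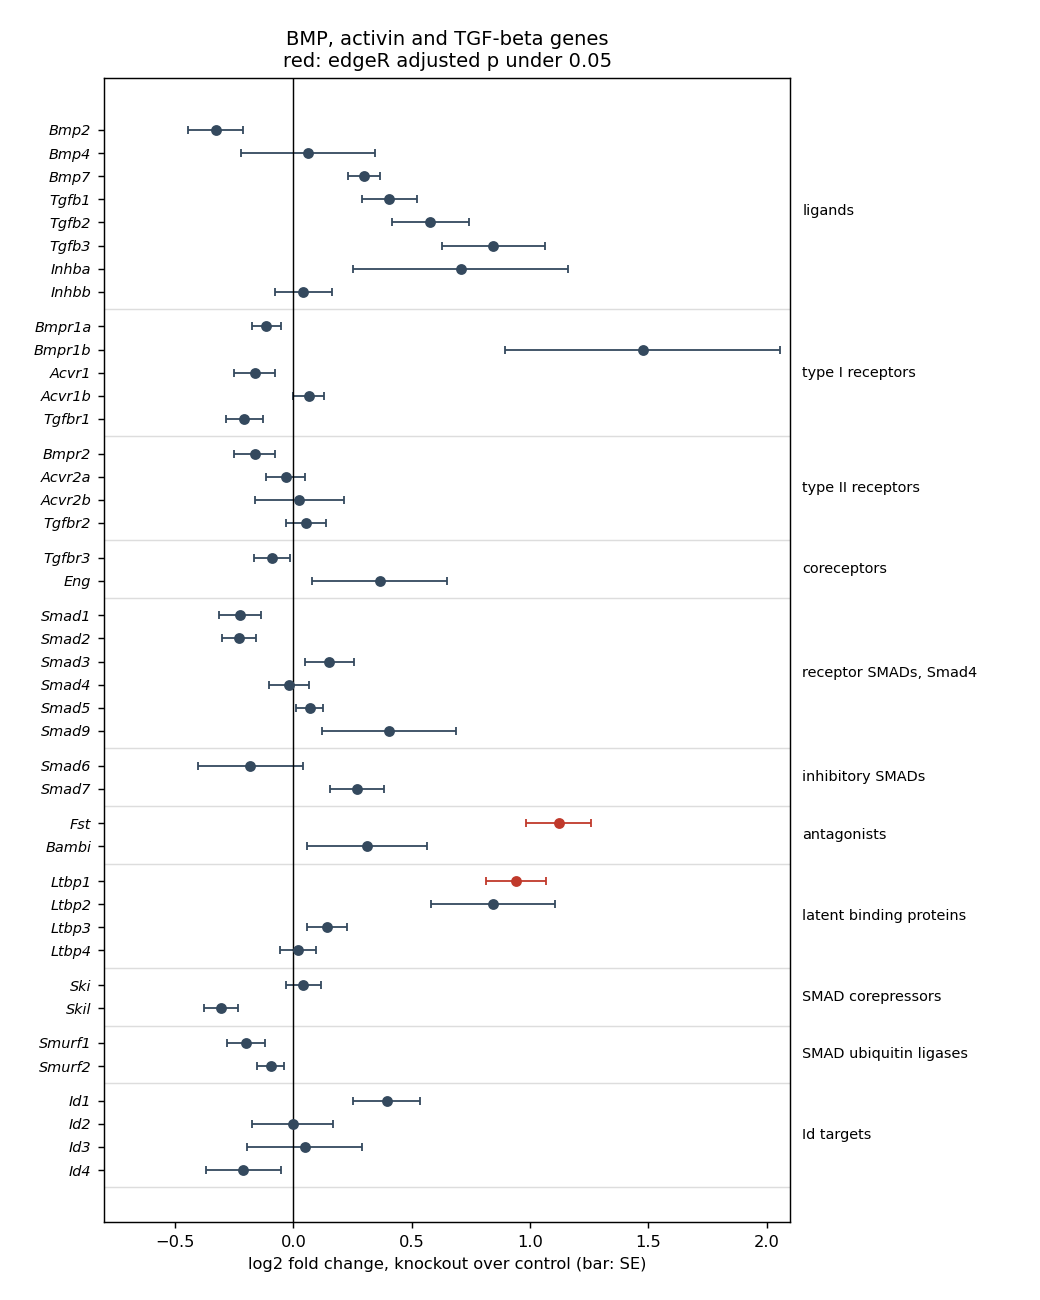
Log2 fold change of knockout over control (x axis) for the 41 members tested, grouped by role, with the standard error as a bar. The 2 red points, Fst and Ltbp1, have an edgeR adjusted p under 0.05.

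Start sites of some higher members are shown because they carry the sequence that SMAD proteins and other factors could read. They were sought for members with no overlap between the groups, an unadjusted p under 0.05 and a log2 fold change over 0.5. Fst and Tgfb3 met these criteria but had no window. The RefSeq (GRCm38.p6) table held windows for Ltbp1, Ltbp2 and Tgfb2. Ltbp1 has a pair of start sites in that table, and counts per gene do not separate transcripts from them. Up to 250 bases before each start are given 5′ to 3′ on the strand of the gene, without bases of its annotated exons. Capitals mark the SMAD box, CAGAC or GTCTG on the other strand, and the cAMP response element TGACGTCA.
Tgfb2, chr1:186705990-186706239, minus strand: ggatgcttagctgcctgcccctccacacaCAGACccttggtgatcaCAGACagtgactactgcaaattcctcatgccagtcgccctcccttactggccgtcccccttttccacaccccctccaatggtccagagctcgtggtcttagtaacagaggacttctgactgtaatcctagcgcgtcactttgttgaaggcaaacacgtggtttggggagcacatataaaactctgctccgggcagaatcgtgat
Ltbp1 first start, chr17:75005279-75005528, plus strand: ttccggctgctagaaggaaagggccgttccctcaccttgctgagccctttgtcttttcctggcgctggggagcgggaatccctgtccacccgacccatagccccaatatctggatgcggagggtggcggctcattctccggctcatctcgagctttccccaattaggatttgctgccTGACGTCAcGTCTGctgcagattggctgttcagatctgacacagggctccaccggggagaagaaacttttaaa
Ltbp1 second start, chr17:75178531-75178780, plus strand: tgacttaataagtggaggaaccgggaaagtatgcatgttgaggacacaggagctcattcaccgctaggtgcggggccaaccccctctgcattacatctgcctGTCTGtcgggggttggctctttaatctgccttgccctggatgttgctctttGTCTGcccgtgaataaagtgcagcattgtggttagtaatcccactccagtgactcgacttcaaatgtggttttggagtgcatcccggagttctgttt
Ltbp2, chr12:84876533-84876741, minus strand: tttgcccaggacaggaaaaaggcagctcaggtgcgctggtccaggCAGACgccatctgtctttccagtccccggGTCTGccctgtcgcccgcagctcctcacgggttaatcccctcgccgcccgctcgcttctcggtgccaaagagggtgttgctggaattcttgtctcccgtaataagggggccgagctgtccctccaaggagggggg
Each of the 4 windows held at least 1 SMAD box. That is common: of the 31 members in the RefSeq table, 15 held one between 250 bases before and 50 bases after a start (48.4%), and so did 53.2% of all genes in the table. TGACGTCA, searched for after the windows had been seen, stood in the window of the first Ltbp1 start and in that of no other member, and 2.03% of all genes held it. GGCGCC, a motif of BMP-responsive promoters that reads the same on both strands, was found in 11 of the 31 members (35.5%), among them Id2 and Id4, and in 13.4% of all genes. Members and all genes were not matched for base composition or expression, and the difference in share was not tested. The GLI core GACCACCCA or its reverse TGGGTGGTC was found in 0 of the 31 members and in 0.289% of all genes. Matches of letters describe these windows and are no evidence of binding.

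Follistatin is a secreted protein that binds activins tightly and some BMPs more weakly. Fst (chromosome 13, 114452290 to 114458951, minus strand, GRCm38) had 46.1, 44.4 and 49.2 CPM in knockouts, against 25.2, 22.02 and 17.1 CPM in controls. The knockout libraries lay close together, and every one was far above the highest control, DE680. The means were 46.6 ± 2.47 CPM in knockouts and 21.4 ± 4.10 CPM in controls (SD, n = 3 each), log2 fold change 1.12, SE 0.14, edgeR adjusted p = 0.0116. Without DE688 the log2 fold change was 1.08 and the adjusted p 0.0591; in the other 5 fits that left out 1 library Fst passed. Of the 42 members, 13 share exon bases with another gene, by at most 12.4%: exons of Gm47040 on the opposite strand share 2.51% of the exon bases of Fst, and counting by strand is not stated in the sources used here. The activin subunits that Fst would bind did not pass the test. Inhbb had 30.5 ± 2.58 CPM in knockouts and 29.6 ± 4.26 CPM in controls (SD, n = 3 each; log2 fold change 0.04, SE 0.12, edgeR adjusted p = 0.884). Inhba, the subunit of activin A, was scarce, with 1.31, 1.56 and 1.24 CPM in knockouts and 1.06, 1.14 and 0.317 CPM in controls; the groups did not overlap, but the estimate was loose (log2 fold change 0.71, SE 0.45, edgeR adjusted p = 0.433). Per exon length, Inhbb stood at 7.06 CPM per kb over the 6 libraries and Inhba at 0.173, and Fst itself had 10.1 ± 0.539 CPM per kb in knockouts and 4.67 ± 0.894 in controls.

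Bambi, a membrane pseudoreceptor that lacks a kinase and dampens TGF-beta and BMP signals, had 14.8 ± 3.43 CPM in knockouts and 11.9 ± 3.87 CPM in controls (SD, n = 3 each). The groups overlapped and the difference did not pass (log2 fold change 0.31, SE 0.25, edgeR adjusted p = 0.545).

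All 4 latent TGF-beta binding proteins had a positive estimate, with a median log2 fold change of 0.49, and they differed in size. The scarcer pair, Ltbp1 and Ltbp2, were higher in every knockout library than in any control, as were 12.8% of all genes tested. The abundant pair, Ltbp3 and Ltbp4, overlapped. Ltbp1 (chromosome 17, 75005568 to 75392512, plus strand) had 24.7, 29.6 and 32.6 CPM in knockouts, against 14.9, 13.7 and 16.7 CPM in controls. Its means were 28.97 ± 3.96 CPM in knockouts and 15.1 ± 1.52 CPM in controls (SD, n = 3 each), log2 fold change 0.94, SE 0.13, edgeR adjusted p = 0.0158. The call did not hold in 4 of the 6 fits that left out 1 library: the edgeR adjusted p was 0.0682 without DE680, 0.0519 without DE684, 0.0563 without DE685 and 0.0613 without DE688, while the log2 fold change was at least 0.85 in all 6. Ltbp2, which binds fibrillin but, unlike the others, no latent TGF-beta, had 17.6, 14.1 and 20.5 CPM in knockouts, against 10.2, 6.10 and 12.8 CPM in controls. Its spread was wider, and it passed in DESeq2 (adjusted p = 0.0165) and in the edgeR fit with sex as a second term (adjusted p = 0.0319) but not in the edgeR fit by genotype alone (log2 fold change 0.84, SE 0.26, adjusted p = 0.152). Exons of D030025P21Rik on the opposite strand share 9.34% of the exon bases of Ltbp2. Ltbp3 had 135 ± 3.93 CPM in knockouts and 122 ± 13.3 CPM in controls (SD, n = 3 each; log2 fold change 0.14, SE 0.08, edgeR adjusted p = 0.391). Ltbp4 had the highest level per exon length of all 42 members, 47.8 ± 2.75 CPM per kb in knockouts and 47.2 ± 3.86 in controls (SD, n = 3 each). Its values of 329, 297 and 301 CPM in knockouts and 290.0, 334 and 291 CPM in controls differed by less than the spread within groups (log2 fold change 0.02, SE 0.08).

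**Figure D2:**
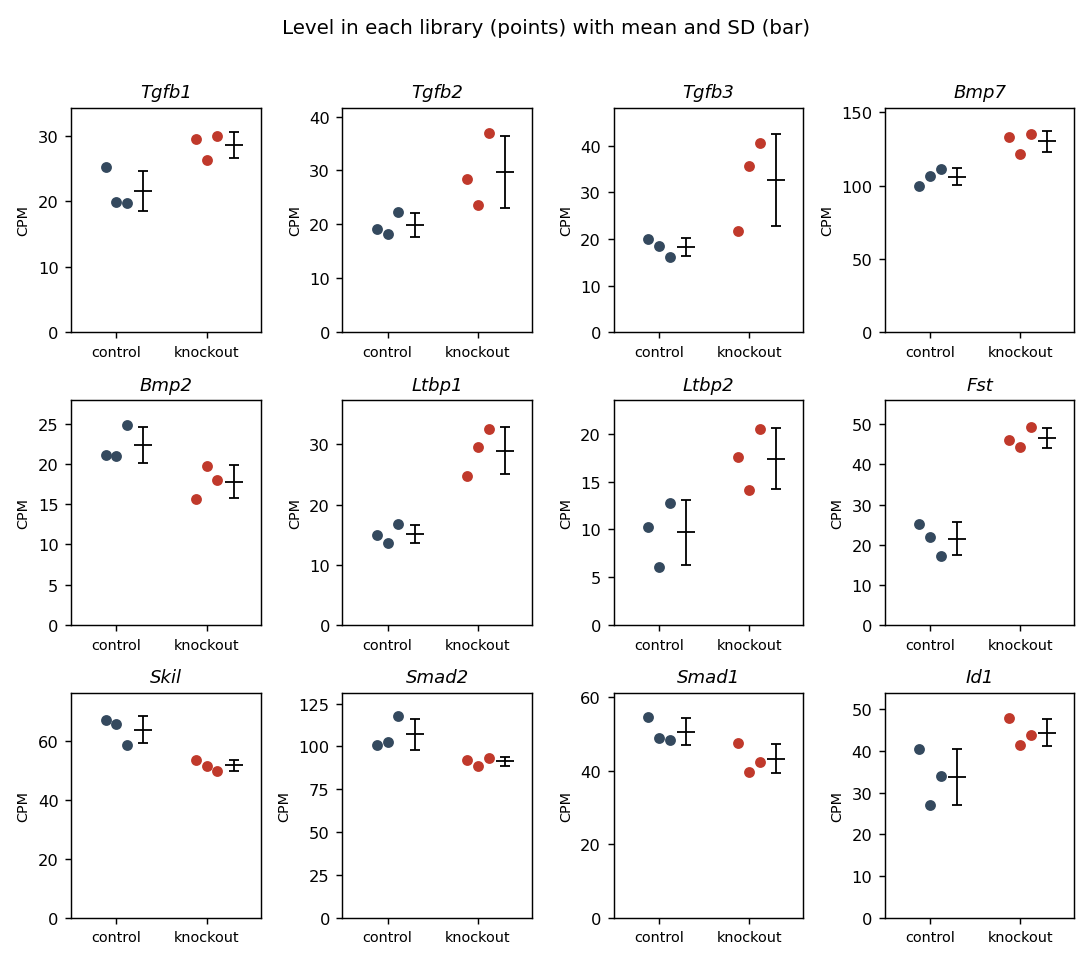
CPM (y axis, from 0) in each library for 12 members, with the mean and SD beside each group. For Fst and Ltbp1 the groups lie clearly apart, and for Tgfb3 the knockout libraries spread from 21.7 to 40.7 CPM.

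The cargo of these complexes, the 3 TGF-beta ligands, was higher in all 3 knockout libraries than in any control, with no ligand past the edgeR threshold. Groups were apart and higher in this way for 12.8% of all genes tested. Tgfb1 had 29.6, 26.4 and 30.03 CPM in knockouts, against 25.2, 19.96 and 19.8 CPM in controls. The lowest knockout, DE685, lay just above the highest control, DE680 (log2 fold change 0.41, SE 0.11, edgeR adjusted p = 0.129). Tgfb2, known from the hair follicle and its niche, had 28.5, 23.6 and 36.9 CPM in knockouts, against 19.1, 18.2 and 22.3 CPM in controls. The highest control and the lowest knockout were again close, and DE688 lay well above the other knockouts (log2 fold change 0.58, SE 0.16, edgeR adjusted p = 0.131). Gm29491 shares 2.14% of its exon bases. Tgfb3 had 21.7, 35.6 and 40.7 CPM in knockouts, against 19.96, 18.4 and 16.1 CPM in controls. DE679 stood near the controls and the other knockouts far above them (log2 fold change 0.84, SE 0.22, edgeR adjusted p = 0.107); without DE679 the log2 fold change was 1.07 and passed (edgeR adjusted p = 0.0215). Exons of Gm37804 and Gm48008 on the opposite strand share 12.4% of the Tgfb3 exon bases. In DESeq2 the ligands passed with adjusted p of 0.0481 (Tgfb1), 0.018 (Tgfb2) and 0.00168 (Tgfb3). It called 3.92% of the genes to which it gave an adjusted p higher.

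Of the 7 hair follicle markers (Lgr5, Lgr6, Sox9, Cd34, Lhx2, Krt17 and Krt79), 6 had a positive estimate and Cd34 a negative one (log2 fold change −0.29). In edgeR 0 passed, 5 were higher at an unadjusted p under 0.05 and 0 lower, and DESeq2 called 5 higher. Their summed level was 3869 to 4683 CPM in the knockout and 2827 to 3721 in the control, most of it Krt17 and Krt79. None of the 7 was at 0 in any library. Their part in the levels of Fst, the latent binding proteins and the ligands was not tested. More cells of a type and more RNA per cell cannot be told apart in such bulk samples. Of the 10 fibroblast markers, 7 were tested and Dcn alone passed in edgeR, while DESeq2 called 2 higher, Dcn and Thy1. Of those tested, 4 had a positive estimate and 3 a negative one: Col1a1, Col1a2 and Col3a1 (log2 fold change −0.38, −0.42 and −0.54). The 10 summed to 234 to 274 CPM in the knockout and 127 to 146 in the control, most of it Dcn, Thy1 and Col6a1. Without Dcn, Thy1 and Col6a1, set aside after their values were seen, the other 7, fibrillar collagens among them, had sums that overlap. These were 15.8 to 19.5 CPM in the knockout and 12.7 to 39.2 in the control. The 3 set aside all had a positive estimate, so the sum of the rest is no measure of fibroblast content. All 8 melanocyte markers had a positive estimate and 0 passed in edgeR (3 at an unadjusted p under 0.05, 1 in DESeq2), with sums of 87.8 to 128 CPM in knockouts and 61.0 to 88.3 in controls. The 6 listed pericyte and smooth muscle markers summed to 327 to 384 CPM in knockouts and 286 to 296 in controls, most of it Cspg4 and Notch3. Of the 3 tested, 1 passed in edgeR and DESeq2: Cspg4, with 155.7, 143.8 and 176.4 CPM in knockouts, against 101.5, 119.8 and 112.5 CPM in controls (edgeR adjusted p = 0.0427, and 0.0585 to 0.15 with 1 library left out). The part of these lists in the results was not tested.

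Of the 8 ligands tested, BMPs, TGF-betas and activin subunits together, 7 had a positive estimate, with a median log2 fold change of 0.35. The exception was a BMP. Bmp7, the ligand with the highest level per exon length (32.4 ± 1.81 CPM per kb in knockouts and 26.4 ± 1.46 in controls), had 133, 122 and 135 CPM in knockouts, against 99.9, 106 and 112 CPM in controls. The groups were apart, and the difference passed in DESeq2 (adjusted p = 0.0124) but not in edgeR (log2 fold change 0.30, SE 0.07, adjusted p = 0.0841). Bmp2, a BMP of the hair follicle and suprabasal epidermis, stood the other way, with 15.6, 19.8 and 18.05 CPM in knockouts, against 21.1, 20.9 and 24.9 CPM in controls. All knockouts lay below all controls, DE685 only just, and the test was not passed (log2 fold change −0.33, SE 0.12, edgeR adjusted p = 0.197). Bmp4, the close relative of Bmp2, had 6.28, 9.82 and 6.34 CPM in knockouts, against 5.46, 10.1 and 5.87 CPM in controls. The level in DE685 and DE684, the male library of each group, was above that of the other 4, and the genotypes overlapped (log2 fold change 0.06, SE 0.28, edgeR adjusted p = 0.932). Bmp8a was at the limit of detection, with 5, 8 and 9 counts in the knockout and 1, 7 and 14 in the control, where 3 counts correspond to 0.117 to 0.173 CPM; that floor covers counting error only.

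No receptor gene passed the edgeR test, and the estimates of the type I receptors were small apart from that of Bmpr1b. Acvr1b, the activin type I receptor ALK4, had the highest level per exon length among receptors, 40.3 ± 2.16 CPM per kb in knockouts and 38.5 ± 2.06 in controls. It had 189, 172 and 172 CPM in knockouts, against 162, 167 and 180.1 CPM in controls, and these values overlap (log2 fold change 0.07, SE 0.07, edgeR adjusted p = 0.624). Bmpr1a, the main BMP type I receptor of the epidermis, had 163 ± 6.51 CPM in knockouts and 177 ± 9.09 CPM in controls (SD, n = 3 each; log2 fold change −0.11, SE 0.06, edgeR adjusted p = 0.351). Tgfbr1, the type I receptor of TGF-beta, was lower in all 3 knockouts, with 38.6, 36.4 and 32.7 CPM in knockouts, against 40.8, 41.1 and 42.4 CPM in controls. The groups were close without overlapping, and the test was not passed (log2 fold change −0.21, SE 0.08, edgeR adjusted p = 0.224). Acvr1, a BMP type I receptor, had 30.5 ± 1.77 CPM in knockouts and 34.2 ± 2.62 CPM in controls (SD, n = 3 each; log2 fold change −0.16, SE 0.09, edgeR adjusted p = 0.339).

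Bmpr1b had the largest estimate of all members, and it rested on 1 library. This BMP receptor had 1.53, 4.68 and 1.17 CPM in knockouts, against 0.532, 1.23 and 0.833 CPM in controls. DE685 alone was far above the rest, and DE688 lay below the highest control. With all 6 libraries the log2 fold change was 1.48 (SE 0.58, edgeR adjusted p = 0.23), and without DE685 it was 0.63 (edgeR adjusted p = 0.46).

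The type II receptors and coreceptors gave no call. Bmpr2, the BMP type II receptor, had the highest level per exon length of the type II receptors, 12.1 ± 0.570 CPM per kb in knockouts and 13.6 ± 1.41 in controls, with 219, 228 and 208 CPM in knockouts and 215, 259 and 259.5 CPM in controls (log2 fold change −0.16, SE 0.08, edgeR adjusted p = 0.334). Acvr2a and Acvr2b, which bind activins and BMPs, had log2 fold changes of −0.03 (SE 0.08) and 0.03 (SE 0.19). Tgfbr2, through which all TGF-betas signal, had 77.5 ± 5.68 CPM in knockouts and 74.7 ± 6.71 CPM in controls (SD, n = 3 each; log2 fold change 0.05, SE 0.08). Tgfbr3, or betaglycan, presents TGF-beta2 to its receptors, and had 9.14 ± 0.624 CPM per kb in knockouts and 9.73 ± 0.646 in controls, the higher level per exon length of the coreceptors; by library it had 63.8, 60.1 and 55.7 CPM in knockouts and 60.5, 62.1 and 68.5 CPM in controls (log2 fold change −0.09, SE 0.08, edgeR adjusted p = 0.565). Eng, or endoglin, is a coreceptor best known from endothelium and was scarce, with 2.51 ± 0.638 CPM in knockouts and 1.96 ± 0.429 CPM in controls (SD, n = 3 each; log2 fold change 0.37, SE 0.29). The 8 endothelial markers summed to 5.43 to 7.20 CPM in the knockout and 6.58 to 10.4 in the control, and none was at 0 in any library. Of the 7 tested, 1 had a positive and 6 a negative estimate (median log2 fold change −0.39), and 0 passed the edgeR test. Groups were apart and higher for 1 and apart and lower for 2. At an unadjusted p under 0.05, 0 of them were higher and 1 lower, and DESeq2 called 0.

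**Figure D3:**
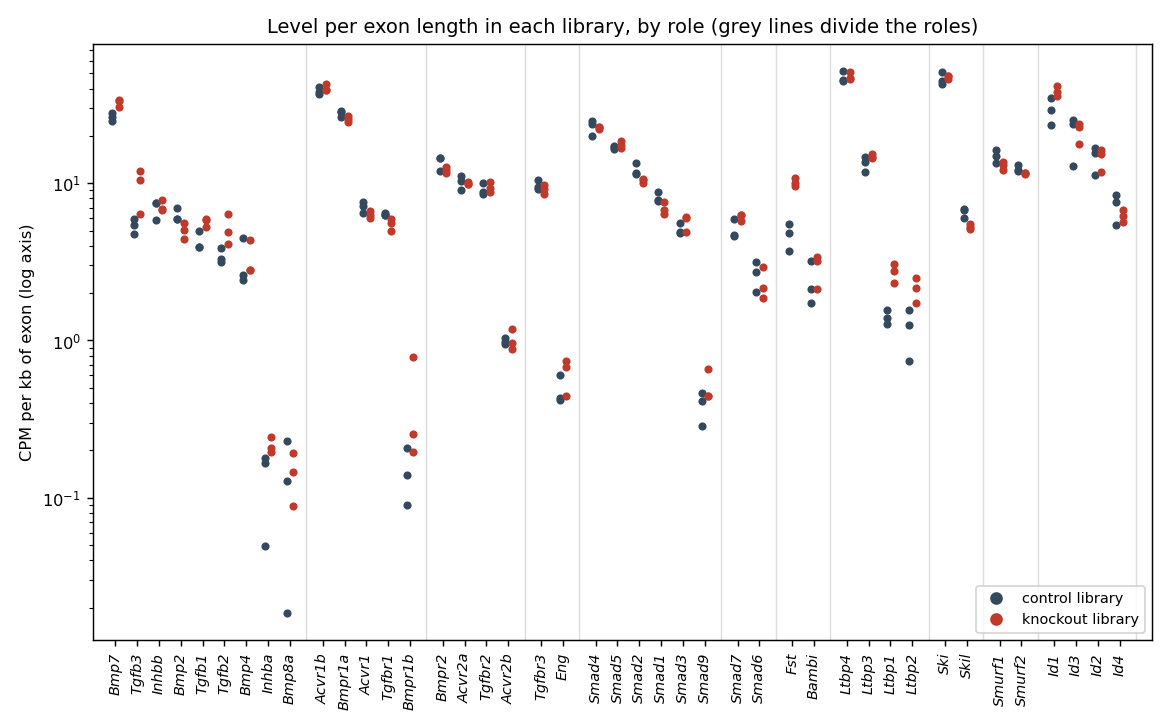
Level per kb of exon (log axis) in each of the 6 libraries for all 42 members, ordered by role and level. Ltbp4, Ski and Acvr1b lie at the top, and Bmp8a, Inhba and Bmpr1b at the bottom.

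Among the SMADs the groups were apart for Smad1 and Smad2, both lower in the knockout libraries, and no SMAD passed in edgeR. Of all genes tested, 12.8% were apart and lower in this way. Smad2, a receptor SMAD of TGF-beta and activin, had 91.8, 88.5 and 93.4 CPM in knockouts, against 101, 103 and 118 CPM in controls. All knockouts were below all controls (log2 fold change −0.23, SE 0.07, edgeR adjusted p = 0.153). Smad1, a receptor SMAD of BMPs, had 47.5, 39.7 and 42.5 CPM in knockouts, against 54.7, 48.9 and 48.2 CPM in controls. Its groups were apart by less than 1 CPM (log2 fold change −0.23, SE 0.09, edgeR adjusted p = 0.23). Smad4, the shared partner, had the highest level per exon length of these SMADs, 22.6 ± 0.364 CPM per kb in knockouts and 22.9 ± 2.49 in controls. Its values were 82.4, 84.9 and 84.6 CPM in knockouts and 74.5, 88.5 and 92.03 CPM in controls, with the knockouts inside the range of the controls (log2 fold change −0.02, SE 0.08, edgeR adjusted p = 0.932). Smad3 and Smad5 had log2 fold changes of 0.15 (SE 0.10) and 0.07 (SE 0.06). Smad9 was scarce, at 0.450 CPM per kb over the 6 libraries (log2 fold change 0.41, SE 0.28).

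The inhibitory SMADs are induced by the signal they limit. Smad7 had 28.6, 28.4 and 26.1 CPM in knockouts, against 26.9, 20.8 and 21.1 CPM in controls. DE680 was level with the knockouts and the other controls lay below (log2 fold change 0.27, SE 0.11, edgeR adjusted p = 0.257). Per exon length it had 6.13 ± 0.299 CPM per kb in knockouts and 5.08 ± 0.762 in controls, above Smad6 at 2.47 over all libraries. Smad6, which acts mainly on BMP signals, had 7.41 ± 1.74 CPM in knockouts and 8.43 ± 1.83 CPM in controls (SD, n = 3 each; log2 fold change −0.18, SE 0.22, edgeR adjusted p = 0.694).

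Of the SMAD corepressors, Ski was abundant and Skil was lower in the knockout libraries. Skil, or SnoN, is a repressor of SMAD target genes and itself a target of TGF-beta. It had 53.6, 51.3 and 49.8 CPM in knockouts, against 66.8, 65.7 and 58.5 CPM in controls. The groups were apart, and the difference passed in DESeq2 (adjusted p = 0.0284) but not in edgeR (log2 fold change −0.30, SE 0.07, adjusted p = 0.0924). Ski had 47.4 ± 1.14 CPM per kb in knockouts and 46.03 ± 4.12 in controls, second among the 42 members after Ltbp4. Its values were 256, 267 and 268 CPM in knockouts and 247, 239 and 282 CPM in controls (log2 fold change 0.04, SE 0.07). Smurf1 and Smurf2 are ubiquitin ligases that mark SMADs and receptors for degradation. Smurf1 had the higher level per exon length, 12.97 ± 0.735 CPM per kb in knockouts and 14.9 ± 1.32 in controls, and 77.3, 86.6 and 82.5 CPM in knockouts, against 85.8, 94.6 and 103 CPM in controls. Its groups overlapped in DE685 and DE680 (log2 fold change −0.20, SE 0.08, edgeR adjusted p = 0.236). Smurf2 had 71.9, 70.4 and 71.8 CPM in knockouts and 74.5, 80.2 and 74.02 CPM in controls, apart but by under 3 CPM (log2 fold change −0.10, SE 0.06, edgeR adjusted p = 0.401).

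The Id genes encode inhibitors of basic helix-loop-helix factors and are classical direct targets of BMP signals. Id1 had 47.9, 41.4 and 43.9 CPM in knockouts, against 40.4, 27.02 and 33.96 CPM in controls. The lowest knockout and the highest control differed by less than 1 CPM (log2 fold change 0.39, SE 0.14, edgeR adjusted p = 0.198). Id1 had the highest level per exon length of the 4, 38.3 ± 2.83 CPM per kb in knockouts and 29.1 ± 5.77 in controls. Id2 had 37.5, 28.5 and 39.9 CPM in knockouts, against 40.9, 27.6 and 37.8 CPM in controls, and its means were 35.3 ± 5.98 CPM in knockouts and 35.4 ± 6.98 CPM in controls (SD, n = 3 each). Id3 had 40.8, 31.7 and 42.5 CPM in knockouts, against 45.4, 22.9 and 42.9 CPM in controls. For both, the male libraries DE685 and DE684 were the lowest of their groups. Their log2 fold changes by genotype were −0.00 (SE 0.17) and 0.05 (SE 0.24). Id4 had 23.9 ± 2.11 CPM in knockouts and 27.6 ± 5.95 CPM in controls (SD, n = 3 each; log2 fold change −0.21, SE 0.16, edgeR adjusted p = 0.507).

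Since DE684 and DE685 stood apart for Bmp4, Id2 and Id3, whose library values are given for that reason, the sex term of the edgeR fit with genotype and sex was read out after those values had been seen. It passed for 0 of the 41 members (adjusted p over all genes, where 0.46% of all genes passed). At an unadjusted p under 0.05 it did so for 10. The share of all genes at that unadjusted p was not counted, so the 10 cannot be set against it. The smallest adjusted p was that of Id2, lower in the male libraries (−0.48, SE 0.08, log2 scale, edgeR adjusted p = 0.0595). Id3 was at −0.66 (SE 0.13, edgeR adjusted p = 0.0871), and Bmp4 was higher in the male libraries, by 0.74 (SE 0.14, edgeR adjusted p = 0.0882). Each group had 1 male library, and DE685 was also the shallowest library, so sex and other properties of these libraries cannot be told apart. Cell type markers moved with them too: Krt1 and Krt10, of the differentiated keratinocyte markers, were highest in DE685 and DE684 within their groups, while Ivl, Krtdap, Sbsn and Dsg1a, of the same list, had a negative estimate for male over female libraries. The 9 immune markers summed to 59.5 CPM in DE685 and 35.9 in DE684, each the lowest of its group. By genotype, all 8 immune markers tested had a positive estimate, with overlapping groups, and 0 passed in edgeR. The part of these markers in the levels of Bmp4, Id2 and Id3 was not tested. With the sex term in the fit, Fst and Ltbp1 stayed past the threshold.

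Other genes of the pathway were read from 7 lists of 111 genes, of which 87 were tested: 5 were called higher (Bmp3, Rgma, Dcn, Nfatc1 and Runx2) and 3 lower (Thbs1, Pmepa1 and Dlx5) in edgeR, where 1.24% and 0.357% of all genes were. Their median log2 fold change was 0.03. DESeq2 called 10 higher and 5 lower, against 3.92% and 2.14% of all genes. The lists too were chosen with earlier results of these data known, so their counts are no independent test. Among 8 other ligands tested, 1 passed, Bmp3, an unusual family member that opposes BMP signals. It was scarce and had 1.70, 2.25 and 1.91 CPM in knockouts, against 0.311, 0.570 and 0.238 CPM in controls. The fold of 5.19 rests on these low levels (log2 fold change 2.37, SE 0.38, edgeR adjusted p = 0.0292). Among 8 other receptors and coreceptors, 1 passed, Rgma, a membrane-anchored coreceptor of BMPs, with 106, 121 and 127 CPM in knockouts, against 80.4, 83.00 and 90.5 CPM in controls. All knockouts were above all controls (log2 fold change 0.48, SE 0.08, edgeR adjusted p = 0.0389).

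Among 14 extracellular antagonists tested, 12 had a positive estimate, 6 were higher at an unadjusted p under 0.05 and none lower, and 1 passed. Of all genes tested, 49.3% had a positive estimate, 9.9% were higher at that p and 1.24% passed as higher. Because the list was chosen with earlier results known, setting it beside these shares tests nothing. The gene that passed was Dcn, the proteoglycan decorin, which binds TGF-beta. It had 119 ± 6.19 CPM in knockouts and 31.9 ± 10.1 CPM in controls (SD, n = 3 each; log2 fold change 1.90, SE 0.21, edgeR adjusted p = 0.00782). Dcn is also one of the fibroblast markers whose sums are given above.

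In the list of latent TGF-beta storage and activation, 10 genes were tested and 1 passed. Thbs1, a matrix protein that can activate latent TGF-beta, was lower, with 114, 96.2 and 123 CPM in knockouts, against 175, 241 and 182 CPM in controls. Its highest knockout lay far below its lowest control (log2 fold change −0.84, SE 0.14, edgeR adjusted p = 0.0354), and Gm29233 shares 3.42% of its exon bases. At an unadjusted p under 0.05, 3 of the 10 were higher and 2 lower, where 9.9% and 9.1% of all genes were. Of 22 SMAD partners and turnover genes, 0 passed in edgeR and 2 were lower in DESeq2, which called 2.14% of all genes lower. Here 2 were higher and 4 lower at an unadjusted p under 0.05, against the same 9.9% and 9.1% of all genes. Wwp1, a ubiquitin ligase, had 73.5, 78.7 and 75.1 CPM in knockouts and 88.2, 94.4 and 100.3 CPM in controls (log2 fold change −0.32, SE 0.07, edgeR adjusted p = 0.0662), and Strap, which supports Smad7, had 118, 128 and 125 CPM and 143, 143 and 156 CPM (log2 fold change −0.25, SE 0.06, edgeR adjusted p = 0.0954).

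Of 15 TGF-beta and activin target genes tested, 1 passed: Pmepa1, a membrane protein that TGF-beta induces and that in turn limits SMAD activation. It had 28.1, 26.1 and 26.5 CPM in knockouts, against 44.8, 42.99 and 43.99 CPM in controls. The values within each group lay close together and the groups far apart (log2 fold change −0.71, SE 0.07, edgeR adjusted p = 0.00416). No other gene of that list had an unadjusted p under 0.05, so the list gave 1 lower and 0 higher genes by edgeR, and the same numbers by DESeq2. Of 10 BMP target genes tested, 2 were called higher and 1 lower in edgeR, where 1.24% and 0.357% of all genes were. At an unadjusted p under 0.05, 4 were higher and 1 lower, against 9.9% and 9.1% of all genes. DESeq2 called 3 higher and 1 lower, against 3.92% and 2.14%. Nfatc1, a transcription factor of quiescent follicle stem cells, had 175, 218 and 231 CPM in knockouts, against 110.5, 102 and 111 CPM in controls. No value of the groups came near the other (log2 fold change 0.95, SE 0.10, edgeR adjusted p = 0.00771). Runx2, a factor best known from bone, had 8.95 ± 2.26 CPM in knockouts and 3.62 ± 0.201 CPM in controls (SD, n = 3 each; log2 fold change 1.30, SE 0.21, edgeR adjusted p = 0.0292), and Runx2os1 shares 5.87% of its exon bases. Dlx5, a homeobox factor, was lower, with 23.3, 20.97 and 22.1 CPM in knockouts, against 31.5, 30.8 and 30.9 CPM in controls. Its controls lay within 1 CPM of each other and the knockouts below them (log2 fold change −0.49, SE 0.07, edgeR adjusted p = 0.0241).

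Leaving out 1 library at a time, Dcn, Pmepa1 and Nfatc1 passed in all 6 edgeR fits. Bmp3 and Thbs1 passed only without DE684, Rgma and Runx2 only without DE679, and Dlx5 in none. Over these fits the edgeR adjusted p reached 0.135 for Thbs1, 0.136 for Rgma, 0.0948 for Runx2, 0.120 for Dlx5 and 0.11 for Bmp3.

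**Figure D4:**
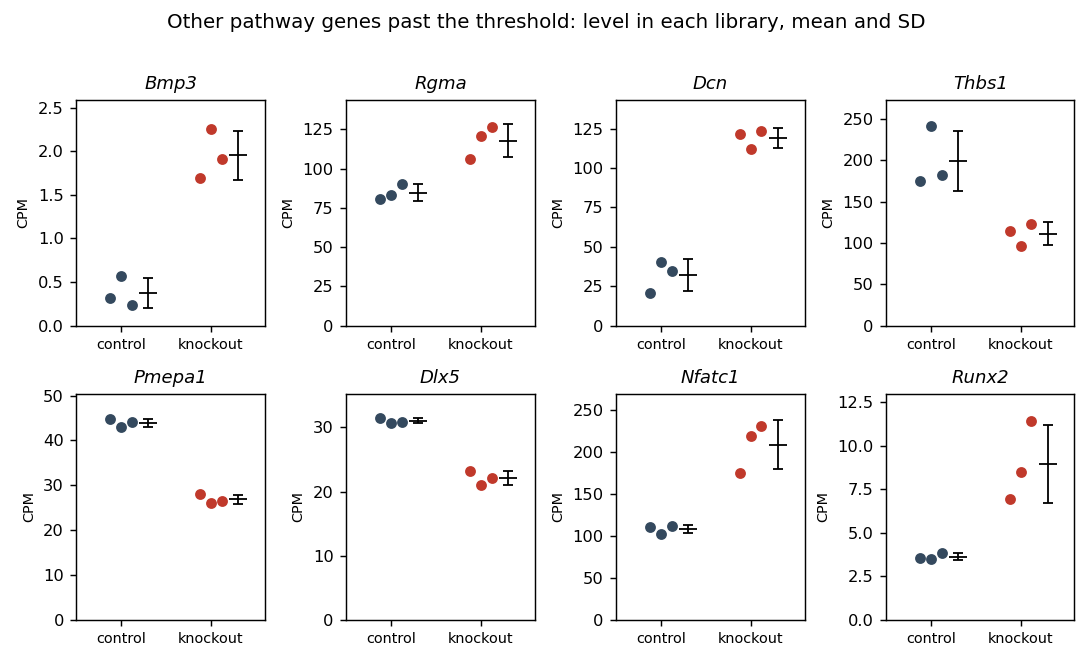
CPM (y axis, from 0) in each library for the 8 other pathway genes past the edgeR threshold, with the mean and SD beside each group. Thbs1, Pmepa1 and Dlx5 are lower in all 3 knockout libraries, and the other 5 genes higher.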

How the data were processed

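RNA of 6 libraries was compared by genotype, 3 against 3. The authors deposited estimated counts per gene and a normalized signal equal to the count times a constant per library plus 0.001. The submitters' processing notes name bcl2fastq 2.20, cutadapt 1.18, STAR 2.7.0f, Partek and mm10; the counting settings are not given in the sources used here. Coordinates of all 42 members equalled those of GENCODE M21, which gave exon lengths.

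Estimated counts were rounded, filtered (filterByExpr), scaled (TMM) and fitted with edgeR 4.0.16 glmQLFit and glmQLFTest (R 4.3.3) on genotype, adjusted over 15422 genes at 0.05. Within groups, libraries differed by more than counting noise (chi-square per degree of freedom 12.2 to 39.9). An exact permutation test of 3 against 3 cannot go below 0.1, so none is given.

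The members and lists were chosen with earlier results of these data known. All 42 members are named; library values are given for members with an unadjusted p under 0.05, with groups apart, or highest per exon length in their role, and for Bmp4, Id2 and Id3, chosen after their values were seen. Other pathway genes are named if called, or else up to 2 per list by smallest unadjusted p under 0.05. Alternatives were RLE and upper-quartile factors, other filters, DESeq2 1.42.0, limma 3.58.1 (voom, and a trend on log2 of the authors' signal plus 1), a sex term and each library left out.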

Additional observations from a re-analysis of the deposited data

How the results depend on the processing

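Fst and Ltbp1 were called, and no other member, with RLE or upper-quartile factors, with no filter, with a mean of at least 1 CPM, with limma-voom and with limma on the authors' values; the sex term added Ltbp2. DESeq2 called 7 members higher and 1 lower, 15 other pathway genes against 8, and 864 genes in all against 247; the sex term gave 409 genes in all. Of the genes called, 77.7% were higher in the knockout, and 64.7% in DESeq2. The cause was not tested. With 1 library left out, 0 to 3 members were called higher (0 without DE688, 3 without DE679) and 0 lower. Calls among other pathway genes were 3 to 6, and among all genes 69 to 121. These fits had fewer libraries than the fit to all 6, and the part of that in the counts was not tested. Over the 14 alternatives, 252 log2 fold changes were recomputed for the 18 members with an unadjusted p under 0.05 or with groups apart: 239 kept their side of the threshold, 8 newly passed, 5 no longer passed and 0 changed sign. These members were chosen by how far their groups differ, so their signs had little room to turn. Of all 41 members tested, 10 changed sign in at least 1 fit that left out a library: Bmp4, Inhbb, Acvr2a, Acvr2b, Tgfbr2, Smad4, Ltbp4, Ski, Id2 and Id3, none of them called. Counting motifs only before the start left 15 members with a SMAD box, 10 with GGCGCC, 1 with TGACGTCA and 0 with the GLI core. No paired analysis was possible because the columns carry no replicate numbers and cannot be tied to the numbered titles. Depth limits Bmp8a, Bmp3, Inhba and Bmpr1b, for which few reads lie behind each value.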
